A study of Mus musculus with 78 samples.

Results

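EZH1 is one of the alternative catalytic subunits of Polycomb repressive complex 2 (PRC2), the enzyme that methylates lysine 27 of histone H3. SUZ12 is a core subunit that the complex needs with either catalytic subunit, and H3K27me3 is the trimethylated product of the reaction. In many cell types PRC2 is known to occupy CpG-rich promoters of developmental regulators that stay silent. EZH1 prevails over its paralogue EZH2 in non-dividing cells such as myotubes, where it has also been described at active genes.

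The comparison concerns chromatin immunoprecipitation of EZH1 carrying an HA epitope (HA-EZH1, 3 libraries) against EZH1 captured through biotin (Bio-EZH1, 3 libraries), both at 28 h. These 6 libraries are part of 78 samples, 72 of which came with a peak list, from C2C12 cells, an established line of mouse myoblasts able to fuse into myotubes. Myotubes were synchronized by a serum shock and collected every 4 h between 12 and 32 h. The Bio-EZH1 cells carried a knockdown of the endogenous Ezh1, the α isoform of EZH1 with an Avi tag and the BirA ligase that biotinylates it. They were retrovirally transduced and sorted, and their chromatin was cross-linked with DSG and formaldehyde and captured on streptavidin. For HA-EZH1 the labels name C2C12 without a modified line or an antibody, and the control cells with BirA alone and the 6 HA input samples were not analysed here. The labels also give a NovaSeq6000 for the HA-EZH1 libraries and a NextSeq500 for the Bio-EZH1 libraries. Tag, line, capture, cross-linking and sequencer therefore cannot be told apart in any difference below.

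Members were chosen by presence alone. Peaks of the 6 libraries were merged into 21181 regions wherever they overlapped by at least 1 bp. A region was called HA-only when all 3 HA-EZH1 and none of the 3 Bio-EZH1 libraries had a peak in it, Bio-only in the reverse case and shared when all 6 did. The same rule was applied to promoters, taken as 3 kb to either side of the transcription start site (TSS) of 53843 gene records. Libraries labelled SUZ12 and H3K27me3 at 28 h, 3 of each, were not used to define the classes. By the study's methods the SUZ12 antibody was applied to the doubly cross-linked chromatin of the Bio-EZH1 line, so this readout shares its chromatin with Bio-EZH1 and not, as far as the labels say, with HA-EZH1. Peak names in the lists labelled SUZ12 begin with "strep" and those in the Bio-EZH1 lists with "bio". The meaning of the prefix is not given, and since Bio-EZH1 was captured on streptavidin, that SUZ12 label could not be checked here. The read depth of the libraries is unknown, because the lists hold peaks and no read counts, so every error below is a spread between replicates.

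Peaks found in all replicates of a tag were almost all at places where the other tag had none. Of the 753 regions found in all 3 HA-EZH1 libraries, 700 (93.0%) had no Bio-EZH1 peak in any replicate. Of the 4703 regions found in all 3 Bio-EZH1 libraries, 4409 (93.7%) had no HA-EZH1 peak. The HA-only regions were 3.3% and the Bio-only regions 20.8% of all merged regions, and the 50 shared regions were 0.236%. Among promoters, 613 genes were HA-only (1.14% of all records), 2758 were Bio-only (5.12%) and 32 were shared (0.0594%). Of these, 430 HA-only (1.98%), 1876 Bio-only (8.62%) and 19 shared (0.0873%) genes were protein-coding. Places with peaks of both tags were few, with 3 of the 753 regions having a peak in 1 or 2 Bio-EZH1 libraries and, of the 4703, 181 in 1 and 63 in 2 HA-EZH1 libraries. Peaks of a single replicate were common, since all 3 libraries shared 15.3% of the 4931 regions with any HA-EZH1 peak and 28.3% of the 16622 with any Bio-EZH1 peak.

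**Figure D1:**
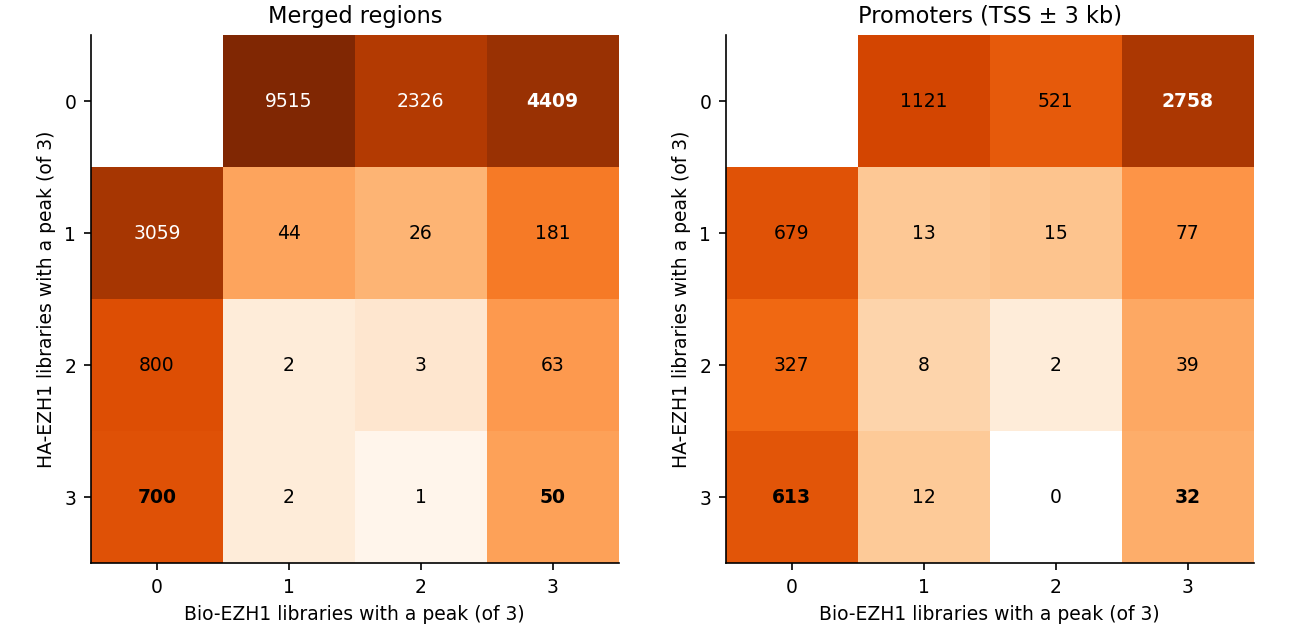
Number of merged regions (left) and promoters (right) by how many of the 3 HA-EZH1 libraries (rows) and of the 3 Bio-EZH1 libraries (columns) had a peak there, shaded on a log scale. The corners in bold are the classes, with 700 HA-only, 4409 Bio-only and 50 shared regions, and the cells where both tags had a peak hold few regions.

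The lists differed in size and in the shape of their peaks. HA-EZH1 libraries listed 2347, 2602 and 2524 peaks, against 9095, 11293 and 10759 in Bio-EZH1 libraries. HA-EZH1 peaks covered 1.41 ± 0.0904 Mb in all and Bio-EZH1 peaks 15.6 ± 1.37 Mb (SD, n = 3 each). The groups did not overlap in either measure. Median peak length was 473 ± 7.75 bp in HA-EZH1 and 724 ± 34.4 bp in Bio-EZH1 libraries. With 3 libraries against 3 the exact two-sided permutation test cannot go below p = 0.1. This permutation test gave that value for 8 of 9 library measures (adjusted p = 0.1125), the exception being the share of peaks at promoters, which was 35.2% ± 0.763 in HA-EZH1 and 34.6% ± 1.21 in Bio-EZH1 libraries (p = 0.6).

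Peaks of 1 HA-EZH1 replicate recurred in another at 40.4% to 45.2%, and those of Bio-EZH1 at 52.4% to 68.0%. Between the tags, 7.46% to 8.99% of HA-EZH1 peaks overlapped a Bio-EZH1 peak of a given library, and 1.29% to 1.90% of Bio-EZH1 peaks an HA-EZH1 peak. The numbering of the lists moved with the tag. Numbers in the peak names ran up to 6817, 7022 and 6956 in the HA-EZH1 lists, of which 34.4%, 37.1% and 36.3% were listed, and the first number on chromosome 1 was 4438, 4385 and 4403. In the Bio-EZH1 lists numbering began at 1 and over 99.9% of numbers were present. Over all time points the 18 Bio-EZH1 lists were the ones to begin at 1, while the lists labelled SUZ12 began between 2704 and 4564 and those of H3K27me3 between 561 and 4077. What the unlisted numbers stand for is not given, nor whether the Bio-EZH1 lists were made in the same way as the others, and the part of this in the differences between tags was not tested.

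Each of the 10 highest ranked HA-only promoters held the same short sequence near the peak summit. Ranking used the fold enrichment, the ratio of the signal at the summit to the local background modelled by MACS2, as a percentile within each library. The words of 6 letters in windows of 300 bp around HA-only summits within 3 kb of a TSS were counted and compared with windows centred on all protein-coding TSSs. ACTACA, read on either strand, was the word with the largest excess. The stretches of 30 bases around the copy nearest to the summit are shown because they carry this feature, with ACTACA in capitals, each read 5′ to 3′ on the strand given (mm10).

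Nbr1, chr11:101552357-101552386, minus strand: cccgtaagACTACActttccaagagatgct
Nudt13, chr14:20294628-20294657, plus strand: gcgatgaaACTACAtttcccagagtgcatc
Mmachc, chr4:116708390-116708419, plus strand: agggctggACTACAtttcccaagaagtaaa
Zfp672, chr11:58330469-58330498, minus strand: tgaggaaaACTACAgcaggtgatgaaaatc
Phb, chr11:95666832-95666861, minus strand: tgaggtcaACTACAactcccaaaagatcat
Zfp667, chr7:6283718-6283747, plus strand: aatgcaaaACTACAactcccacaatccctc
Alg14, chr3:121292015-121292044, plus strand: agttaggcACTACAaaccccagaatgcatc
Pafah2, chr4:134396256-134396285, minus strand: gtgttatcACTACAagtcccaggatgcagc
Rpp30, chr19:36083622-36083651, plus strand: aaagaaaaACTACAaatcccagaaagctca
Zmat5, chr11:4704556-4704585, plus strand: tattttgaACTACAagtcccgaaagcccct

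Nbr1, which encodes an autophagy receptor, ranked first. Its fold enrichment was 17.7, 17.5 and 18.3 in the HA-EZH1 libraries, with no peak in any Bio-EZH1 library. The summit lay 224 bp from the Nbr1 TSS, inside a promoter window shared with the divergent gene Brca1, a DNA repair factor. Nudt13, a nudix hydrolase gene, followed with 15.2, 12.8 and 13.1. Mmachc, needed for the processing of vitamin B12, had 11.7, 16.5 and 14.8, and the zinc finger gene Zfp672 had 12.4, 11.3 and 15.9. Phb, which encodes the mitochondrial protein prohibitin, had 12.5, 9.85 and 11.6. These 5 lay above a fold enrichment of 9 in every HA-EZH1 library, as did the rest of the 10 except Pafah2 (8.50 in replicate 2). Zfp667, Alg14 (N-glycosylation), Pafah2 (hydrolysis of platelet-activating factor), Rpp30 (a subunit of RNase P) and Zmat5 (a protein of the minor spliceosome) completed the 10, with values between 8.50 and 14.2. The summit was within 300 bp of the TSS in all but Zfp667, where it was 2764 bp away.

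Phb shows the arrangement at greater length. The 200 bases around its summit on the plus strand, chr11:95666720-95666919 (mm10), end before the TSS at position 95666957 and hold ACTACA once on each strand (TGTAGT on the strand shown), in capitals here.

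Phb: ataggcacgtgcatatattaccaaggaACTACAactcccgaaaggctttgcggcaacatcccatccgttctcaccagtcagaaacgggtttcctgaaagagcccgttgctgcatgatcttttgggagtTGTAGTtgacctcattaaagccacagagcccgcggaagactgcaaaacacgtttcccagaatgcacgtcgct

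The 10 highest ranked Bio-only promoters had higher fold enrichments than the HA-only ones. Fold enrichments are not calibrated between libraries, so this compares listed values and not strength of binding. Cecr2, which encodes a bromodomain protein of a chromatin remodelling complex, had 85.5, 94.6 and 81.9 in the Bio-EZH1 libraries and no peak in any HA-EZH1 library. The forkhead gene Foxd1 had 67.2, 73.7 and 65.5, and the zinc finger factor Sp9 had 67.9, 62.9 and 63.7. The homeobox gene Tlx2, the growth factor gene Fgf9, Lemd1, Trp73 (the p53 relative p73), Prdm6, Tfap2a (the AP-2α factor) and the immunoglobulin-domain gene Igdcc3 followed, between 45.3 and 63.8. The strongest summits for Fgf9 and Tfap2a lay 4460 and 6899 bp from the TSS. Their peaks reached into the promoter window, but these summits were outside it, unlike those of the other genes named here. The 200 bases around the Cecr2 summit, chr6:120666921-120667120 on the plus strand (mm10), are shown because their base composition is unlike that of Phb, with every CpG in capitals.

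Cecr2: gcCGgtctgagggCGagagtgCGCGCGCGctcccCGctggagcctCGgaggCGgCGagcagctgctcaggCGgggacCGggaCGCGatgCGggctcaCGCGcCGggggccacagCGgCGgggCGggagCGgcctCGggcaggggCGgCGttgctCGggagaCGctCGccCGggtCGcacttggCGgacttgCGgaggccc

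This stretch had a GC content of 79.5% with 32 CpG, against 50% with 11 CpG in the stretch from Phb. The classes differed less than these single stretches. In windows of 300 bp around summits within 3 kb of a TSS, median GC was 54.3% in HA-only and 66.0% in Bio-only regions. The median CpG ratio, observed over expected, was 0.639 and 0.743.

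**Figure D2:**
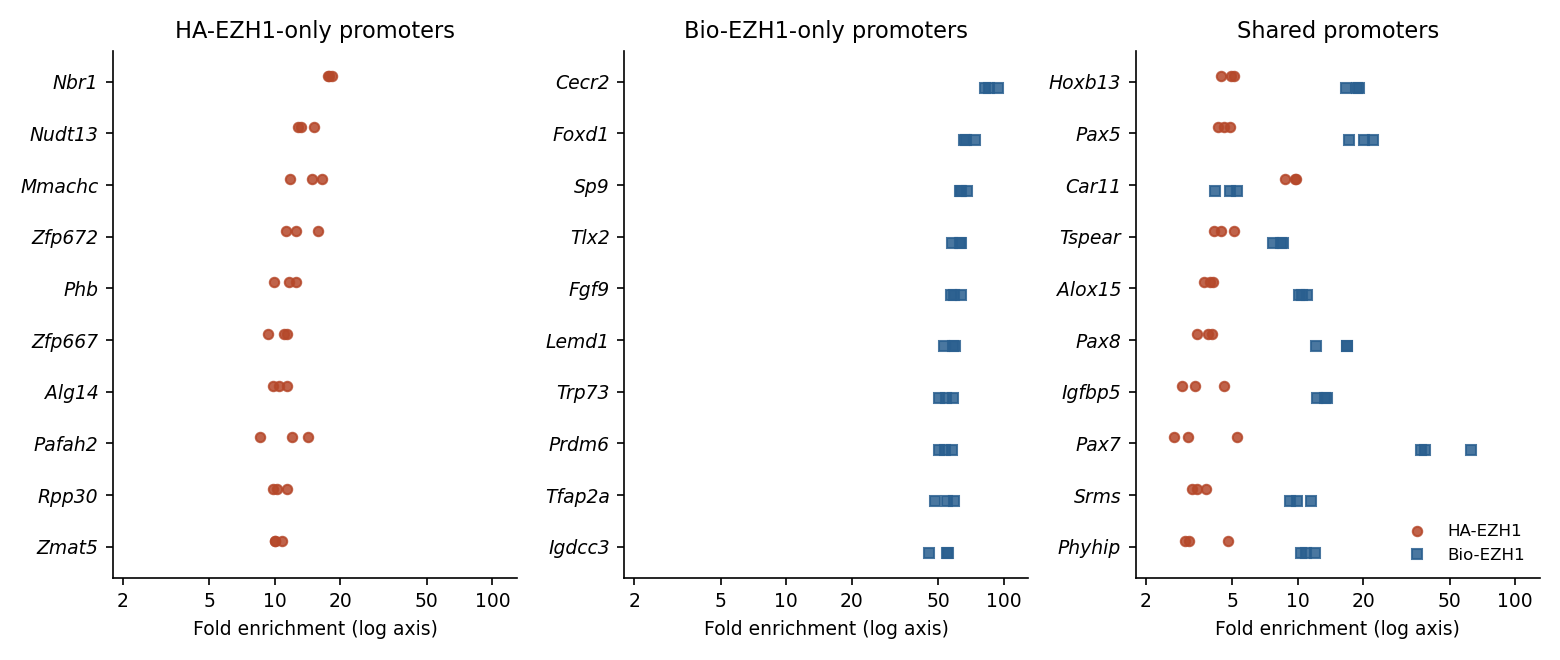
Fold enrichment (log axis) of the 10 highest ranked promoters of each class, with 1 circle for each HA-EZH1 library and 1 square for each Bio-EZH1 library. HA-only promoters lie between 8.50 and 18.3, Bio-only promoters between 45.3 and 94.6, and in the shared promoters Bio-EZH1 is above HA-EZH1 at every gene but Car11. The Car11 promoter overlaps no shared region, so its peaks of the tags are not in 1 common region.

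The gene lists differed in the share of their members in each class. Of 66 homeobox and forkhead factors 0 were HA-only and 42 Bio-only, and of 48 T-box, Sox, GATA and bHLH factors 0 were HA-only and 35 Bio-only. Of 40 Wnt, Bmp, Fgf and hedgehog ligands 0 were HA-only and 27 Bio-only, and of 38 neuronal receptors and channels 0 were HA-only and 14 Bio-only. These shares of Bio-only genes (63.6%, 72.9%, 67.5% and 36.8%) stand beside 5.12% of all genes and 8.62% of protein-coding genes. Since HA-only excludes any Bio-EZH1 peak, and 50 of the 66 and 40 of the 48 factors had one in at least 1 library, few could be HA-only. An HA-EZH1 peak in at least 1 library was found at 7 of the 66 and 2 of the 48 factors, beside 1817 of all 53843 promoters. Examples are Wnt3 with 44.6, 43.9 and 42.9, Pax2 with 27.2, 28.4 and 25.7, and Tbx2 with 16.2, 16.0 and 16.4 in the Bio-EZH1 libraries.

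Of 39 Hox genes, which specify position along the body axis, 0 were HA-only, 15 were Bio-only (38.5%) and Hoxb13 was shared. Of protein-coding genes, 1.98% were HA-only and 8.62% Bio-only. A peak in at least 1 library was found at 7 of the 39 for HA-EZH1 and at 22 for Bio-EZH1, beside 1817 and 4598 of all 53843 promoters. The 22 could not be HA-only by the rule, so the count of 0 does not mean that HA-EZH1 peaks were missing. The Bio-only ones were Hoxa13, Hoxb1, Hoxb2, Hoxb4, Hoxb7, Hoxb9, Hoxc12, Hoxc13, Hoxd3, Hoxd4, Hoxd8, Hoxd9, Hoxd11, Hoxd12 and Hoxd13. Neighbouring genes shared peaks, since Hoxb2, Hoxb4, Hoxb7 and Hoxb9 took the same value of 43.3, 47.1 and 45.0 from 1 peak. Weak HA-EZH1 peaks were listed in part of the replicates at Hoxb3, Hoxb5, Hoxb6, Hoxb8 and Hoxd10, with values of at most 3.75, so these genes were in no class.

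Housekeeping lists had more HA-only than Bio-only members. Of 55 cytosolic ribosomal protein genes, 6 were HA-only (among them Rpl4, Rps18 and Rps27) and 0 Bio-only. Of 41 genes of the mitochondrial ribosome and respiratory chain, 6 were HA-only (Mrpl1, Mrpl11, Mrps11, Ndufa9, Ndufb5 and Ndufs1) and 1 Bio-only. RNA polymerase II and its general factors had 3 of 36 (Gtf2e1, Gtf2h4 and Taf6), Mediator and elongation 3 of 44 (Hexim1, Med24 and Med27) and splicing 3 of 38 (Hnrnpa1, Prpf4 and Prpf31), each with 0 Bio-only. These shares of HA-only genes, between 6.82% and 14.6%, stand beside 1.14% of all genes and 1.98% of protein-coding genes. Gtf2h4, a subunit of the general factor TFIIH, had 8.01, 8.44 and 8.30 in the HA-EZH1 libraries, and Ndufb5, a subunit of respiratory complex I, had 6.49, 5.44 and 6.82. Most members of these lists had no peak of either tag, 43 of 55 among ribosomal proteins and 29 of 41 among mitochondrial genes. Smaller counts were 2 of 36 aminoacyl-tRNA synthetases and translation factors (Farsa and Lars, with Aars Bio-only), 1 of 32 cell cycle and DNA replication genes (Cdc45), 1 of 31 proteasome genes (Psmb5) and 1 of 26 replication-dependent histone genes (Hist1h4c).

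**Figure D3:**
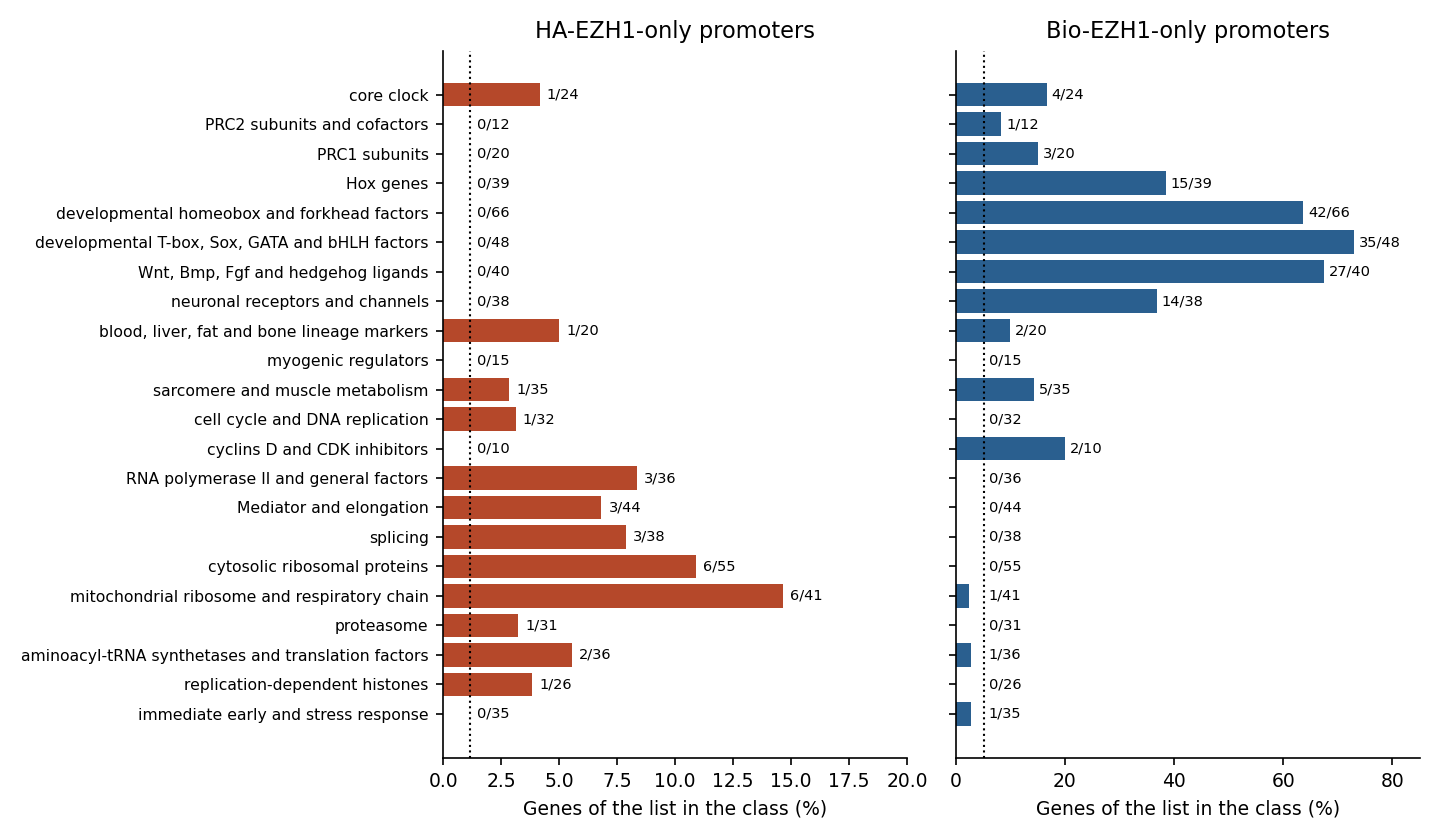
Percent of the genes of each list whose promoter was HA-only (left) or Bio-only (right), with the count beside each bar and a dotted line at the percent over all genes (1.14% and 5.12%). No gene of the Hox, other developmental factor or ligand lists is HA-only, and at most 1 gene of any housekeeping list is Bio-only.

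Of 24 core clock genes, 1 was HA-only (4.17%) and 4 were Bio-only (16.7%), beside 1.98% and 8.62% of protein-coding genes. Nr1d1, the REV-ERBα repressor of the clock, was HA-only with 3.02, 2.90 and 2.66. Npas2, a paralogue of CLOCK, had 21.3, 16.2 and 14.5 in the Bio-EZH1 libraries, and Hlf, a PAR bZIP factor, had 11.4, 10.8 and 7.82. The nuclear receptor genes Rora (6.59, 7.47 and 7.48) and Rorb (3.03, 2.39 and 2.49) were the other two. The remaining 19 had no peak of either tag at the promoter. Outside the promoter window, Per1, a core repressor, had 1 peak within the gene in each HA-EZH1 library and none in Bio-EZH1 libraries. Hlf, Bio-only by its promoter, also had 1 peak within the gene in each HA-EZH1 library, and Rora had 1 in HA-EZH1 replicate 1.

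The next counts are small and stand beside the same 1.98% HA-only and 8.62% Bio-only of protein-coding genes. Of 12 PRC2 subunits and cofactors 0 were HA-only and 1, the cofactor gene Epop, was Bio-only (12.8, 10.9 and 10.2). PRC1 had 3 of 20 Bio-only members, among them Cbx8 with 35.8, 35.2 and 29.2. None of 15 myogenic regulators was in an exclusive class, and Pax7, the factor of satellite cells, was shared. Myog, the gene of myogenin, had a peak in 2 of 3 HA-EZH1 libraries (3.21 and 3.37) and in no Bio-EZH1 library, as had Mymk, the fusion protein myomaker (3.21 and 2.98). Of 35 sarcomere and muscle metabolism genes 1 was HA-only (2.86%), the calcium release channel Ryr1 (3.50, 3.65 and 3.88), and 5 were Bio-only (14.3%), with Ckm, the muscle creatine kinase, at 12.4, 13.9 and 12.9. Of 20 lineage markers of blood, liver, fat and bone, 1 was HA-only (Runx1) and 2 Bio-only (Cd3e and Cebpa). Cyclins D and CDK inhibitors had 0 HA-only and 2 of 10 Bio-only members (Ccnd1 and Cdkn1c), and immediate early and stress genes 0 HA-only and 1 of 35 Bio-only (Egr2).

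HA-only summits were nearer to TSSs than Bio-only summits, but the related measure over whole libraries turned with the number of peaks. Over all peaks of a library the share within 1 kb of a TSS was higher in HA-EZH1 (26.6% ± 0.865 against 20.2% ± 1.07 in Bio-EZH1), and in lists of equal size it was lower (26.9% ± 0.532 against 48.8% ± 0.929; SD of 3 libraries each). The strongest summit was within 100 bp of a TSS in 21% of 700 HA-only and 5.06% of 4409 Bio-only regions, and within 3 kb in 58.6% and 45.5%. HA-only regions were short, with a median length of 871.5 bp against 2242 bp in Bio-only and 10914.5 bp in shared regions. Their median fold enrichment was nevertheless close, at 3.96, 3.87 and 3.92 for HA-only regions in HA-EZH1 libraries and 4.28, 4.13 and 4.15 for Bio-only regions in Bio-EZH1 libraries. Divergent promoters, with a TSS on the other strand within 1 kb, made up 25.8% of 430 HA-only and 6.66% of 1876 Bio-only protein-coding genes, beside 10.9% of all protein-coding genes. At the edge of the promoter window, Msln was just inside with an HA-EZH1 peak at 2923 bp and Prr5l just outside at 3033 bp, while for Bio-EZH1 they were Actr5 at 2999 bp and Ndufb8 at 3002 bp. The regions of one tag were seldom next to those of the other, with 5.0% of HA-only regions within 5 kb of any Bio-EZH1 peak.

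The classes also differed in SUZ12 and H3K27me3, which did not define them. Libraries labelled SUZ12 at 28 h had a peak in 1.43%, 1.86% and 2.57% of HA-only regions, against 99.6%, 99.9% and 99.8% of Bio-only regions. H3K27me3 libraries at 28 h had one in 3.86%, 3.43% and 3.71% of HA-only and 95.4%, 95.5% and 95.7% of Bio-only regions. All 50 shared regions had both, in all 3 libraries of each. HA-only promoters carried SUZ12 peaks at 5.93% ± 0.573 and H3K27me3 peaks at 10.9% ± 0.163 (SD, n = 3), and Bio-only promoters at 99.9% ± 0.0725 and 93.5% ± 0.111, beside 12.0% ± 0.295 and 23.9% ± 0.407 of all promoters. HA-only promoters hold no Bio-EZH1 peak by their rule and all promoters include those that do, so the shares over all promoters are given for scale and no order is read from them. The H3K27me3 values do not rest on the uncertain SUZ12 label.

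Over all peaks rather than classes, 10.1% ± 1.10 of HA-EZH1 and 87.6% ± 1.92 of Bio-EZH1 peaks overlapped a region labelled SUZ12 in all 3 libraries. The shares for H3K27me3 were 15.6% ± 1.39 and 92.1% ± 0.608 (SD, n = 3 each; exact permutation p = 0.1 for both). The distance between the tags grew when each library was cut to its 2347 strongest peaks by p-value, to 10.2% ± 1.09 for HA-EZH1 against 99.9% ± 0.0246 for Bio-EZH1 with SUZ12. In these lists of equal size 35.6% ± 0.355 of HA-EZH1 and 66.5% ± 1.00 of Bio-EZH1 peaks were at promoters. Median GC content at summits was then 52.7% in all HA-EZH1 libraries, against 64.1% ± 0.509 in Bio-EZH1 libraries, whereas with all peaks it was higher for HA-EZH1 (52.7% against 50.1% ± 0.192). The difference in the share of summits within 1 kb of a TSS turned in the same way, being 6.35 percentage points over all peaks and -21.9 in lists of equal size (HA-EZH1 minus Bio-EZH1).

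Of the 700 HA-only regions, 8 had a peak in all 3 libraries labelled SUZ12, and 7 of these lay within 3 kb of a small nuclear RNA (snRNA) gene. snRNAs are the RNA components of the spliceosome. HA-only snRNA and snoRNA genes included Rnu1a1 (U1 RNA) with 9.78, 8.52 and 10.5, Rnu11 (U11 RNA of the minor spliceosome) with 8.44, 7.42 and 10.7, Rnu5g (U5 RNA) with 6.79, 8.02 and 7.51, and the U3 snoRNA genes Rnu3b1 to Rnu3b4. In all 17 HA-only regions were within 3 kb of an snRNA gene, and 1.37% of snRNA and 2.52% of snoRNA gene records were HA-only, against 1.09% and 0.531% Bio-only. Of all gene records, 1.14% were HA-only and 5.12% Bio-only, so the HA-only share of snRNA genes was near that of all genes. These genes have near-identical copies, and some have several records in the annotation, so the values at single copies are uncertain.

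The classes were then followed in the libraries of the other 5 time points, which did not define them. HA-only regions had a peak in 13.1% to 37.3% (median 28.9%) of cases in the 15 other HA-EZH1 libraries, against 0% to 2.14% (median 0.286%) in the 15 other Bio-EZH1 libraries. The difference of means was 25.05 percentage points, and the libraries of the tags did not overlap (permutation within time points, two-sided p = 1e-05, the smallest that 100000 resamples can give, adjusted p = 1e-05). Bio-only regions had a peak in 4.94% to 18.1% (median 10.2%) of cases in HA-EZH1 libraries, against 82.8% to 99.0% (median 93.99%) in Bio-EZH1 libraries, a difference of -81.5 points (same permutation test, p = 1e-05). Shared regions were all found in every one of the other Bio-EZH1 libraries. In the other HA-EZH1 libraries they were found in 14% to 74% (median 62%; permutation p = 1e-05). HA-only and Bio-only regions were chosen by tag at 28 h, and these libraries carry the same tags. The sign of those differences was thus favoured by the choice, and their p-values are no separate support for the classes.

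HA-only regions were thus recovered less fully by HA-EZH1 than Bio-only regions by Bio-EZH1. By time point, the HA-EZH1 libraries of 12 h held 32.7% ± 3.09 of them, those of 16 h 27.8% ± 1.90, those of 20 h 19.05% ± 1.57, those of 24 h 14.8% ± 1.41 and those of 32 h 34.1% ± 3.45 (mean ± SD of 3 libraries). The low values of 20 and 24 h came from HA-EZH1 libraries with 9124 to 16365 peaks, more than HA-EZH1 had at the other time points. Of the 700 HA-only regions, 298 (42.6%) had no peak in any of these 15 HA-EZH1 libraries and 41 (5.86%) had one in all 15. Of the 4409 Bio-only regions, 2 had no peak in any other Bio-EZH1 library and 2910 (66.0%) had one in all 15.

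**Figure D4:**
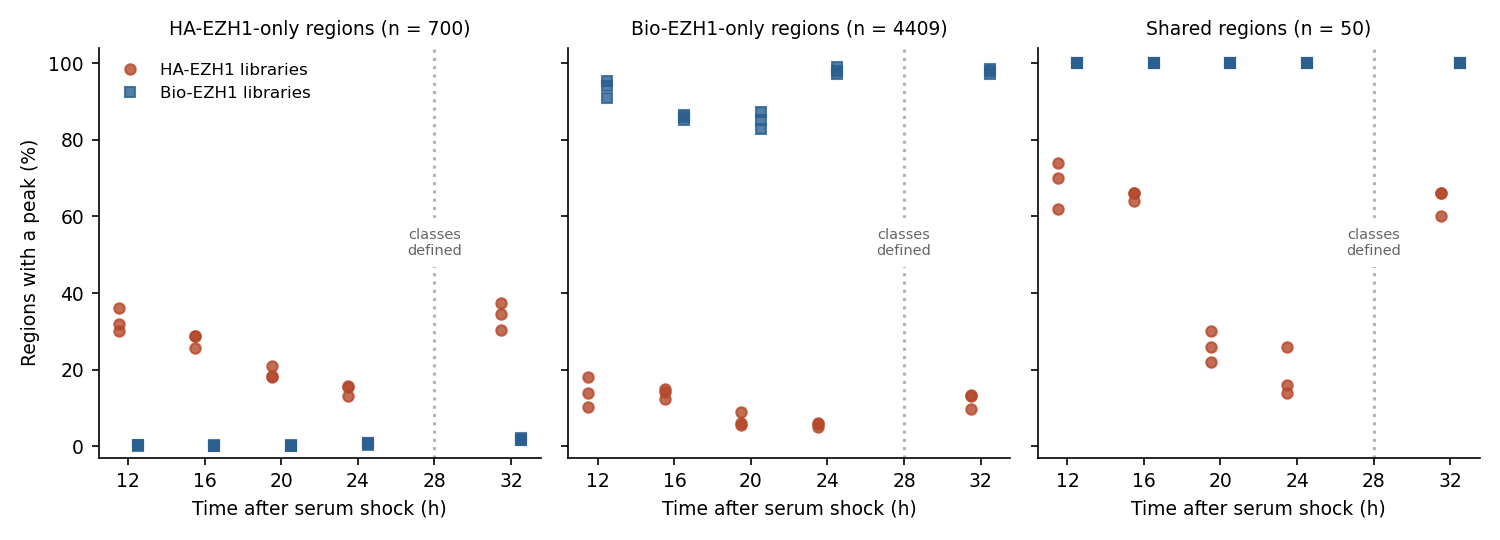
Percent of HA-only, Bio-only and shared regions with a peak in each HA-EZH1 library (circles) and each Bio-EZH1 library (squares) at 12, 16, 20, 24 and 32 h after the serum shock, 3 libraries each. HA-EZH1 lies above Bio-EZH1 in the HA-only panel and below it in the other panels at every time point, with its lowest values at 20 and 24 h.

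The sequence element was more frequent in HA-only regions than around TSSs in general, and in Bio-only regions it was not. In windows of 300 bp around the summit, ACTACA on either strand was in 39.3% of 410 HA-only regions within 3 kb of a TSS and 14.5% of 290 farther away, against 5.28% of 2006 and 9.11% of 2403 Bio-only regions and 9.59% of 21755 protein-coding TSSs. Beside these letters, T, C, C and C followed in positions 9 to 12 in 79.4% to 86.9% of 160 copies near a TSS. The longer form ACTACANNTCC was in 29.3% of HA-only and 0.150% of Bio-only windows near a TSS and in 2.47% of TSS windows. No shared window held either form. These letters are part of the site known for the zinc finger protein ZNF143, which acts at snRNA and protein-coding promoters, but a match of letters says nothing of a protein bound. The word was chosen from these regions, so its share in them is a description.

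The share grew with rank. Among HA-only promoters ordered by fold enrichment, 10 of the first 10, 40 of the first 50 and 148 of all 325 had ACTACA in the window. Near a TSS, regions with it had median fold enrichments of 4.85, 4.71 and 4.94 in the HA-EZH1 libraries, against 3.78, 3.75 and 3.81 for regions without it. The copy nearest to the summit was within 25 bp in 75 of 161 regions near a TSS (46.6%). In regions of other time points that had a peak in all 3 HA-EZH1 libraries but none in any 28 h library, ACTACANNTCC was in 23.9% of 808 windows from 12 h, 14.01% of 728 from 16 h, 1.07% of 1970 from 20 h, 0.641% of 1715 from 24 h and 24.4% of 818 from 32 h. These windows lay at any distance from a TSS, so the time points are not compared at like positions. Over these time points together, the share was 16.5% of 1373 windows within 3 kb of a TSS and 1.07% of 2891 farther away. In HA-only regions the shares near and farther away were 29.3% and 6.90%. The choice of the word did not use the regions of other time points.

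**Figure D5:**
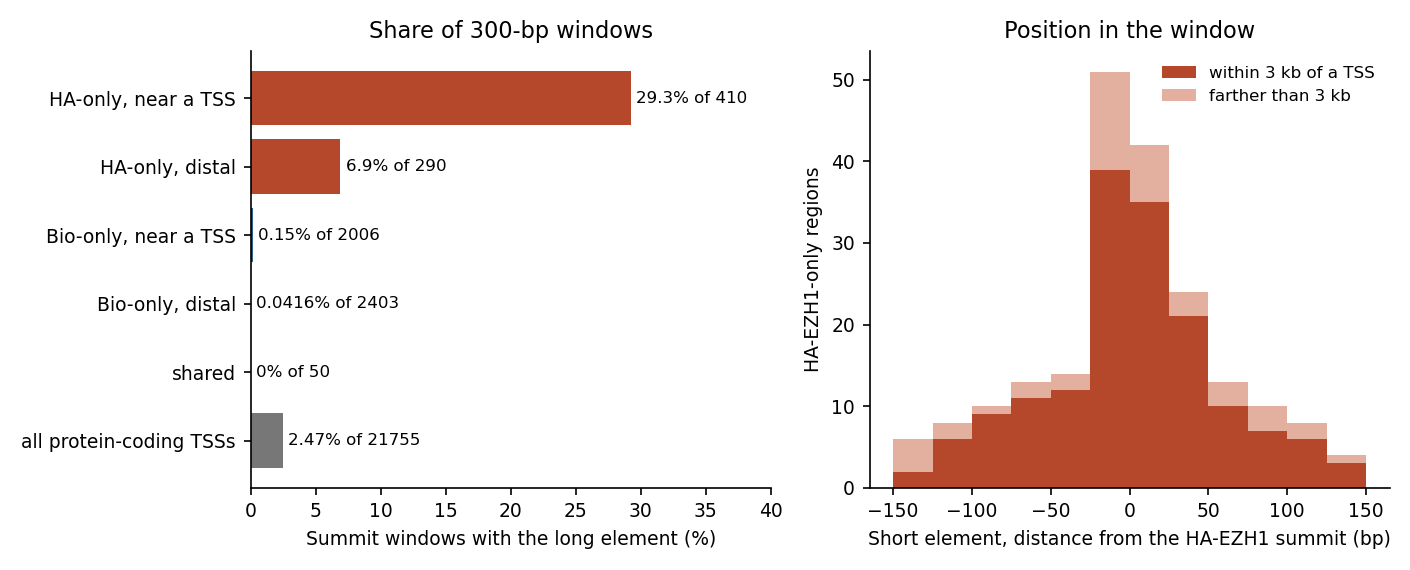
Left, percent of 300-bp windows with the longer element by class, around the strongest summit or, for all protein-coding genes, around the TSS. Right, distance in bp of the shorter element from the HA-EZH1 summit in HA-only regions (stacked bars), where 46.6% of the copies near a TSS lie within 25 bp.

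Other known sites were counted in the same windows. AAGATGGC, the core of YY1 sites, was in 12.2% of HA-only and 0.997% of Bio-only windows near a TSS, beside 3.53% of TSS windows. The GC box GGGCGG showed the opposite, in 22.7% of HA-only and 47.8% of Bio-only windows, beside 45.9% of TSS windows. CCGGAAG, bound by ETS factors, was in 14.6% and 3.49%, beside 11.5%. HA-EZH1 regions of the other time points without a 28 h peak gave 1373 windows near a TSS. Of these, 10.6% held AAGATGGC, 51.9% GGGCGG and 11.2% CCGGAAG, so the low GC box share did not extend to them. Away from TSSs, CAGCTG, the E-box preferred by myogenic bHLH factors, was in 29.0% of HA-only and 17.1% of Bio-only windows, and TGANTCA, the AP-1 site, in 11.4% and 4.91%. The same distal E-box share was 25.9% to 27.3% in the HA-EZH1 and 16.3% to 16.98% in the Bio-EZH1 libraries when all peaks were taken. It was not higher in HA-EZH1 regions of the other time points without a 28 h peak. Of 2891 such distal windows, 17.8% held CAGCTG, close to the Bio-only share, and 20.4% held TGANTCA. The CLOCK and BMAL1 E-box CACGTG was in 5.86% of all HA-only and 4.33% of all Bio-only windows, beside 7.49% of TSS windows. All were searched on both strands.

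Of the 290 distal HA-only regions, with the summit over 3 kb from any TSS, 151 were in introns, 118 between genes and 21 in exons. The strongest lay 21744 bp from Ier5l at chr2:30495720-30496590 (mm10), with 10.8, 10.9 and 10.7, and the next 237146 bp from Myt1l, with 9.85, 11.1 and 9.27. Both held ACTACA in the window. An intronic region of Rbfox2, 102715 bp from the TSS of the myoglobin gene Mb, had 3.82, 4.17 and 3.76 (rank 91 of 290) and held both ACTACA and CAGCTG. One in an intron of Nisch, 12619 bp from the TSS of the troponin gene Tnnc1, had 3.02, 3.04 and 3.37 (rank 264) and held neither.

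In shared regions the HA-EZH1 peaks were near or above the middle of their own lists and the Bio-EZH1 peaks mostly near the top of theirs. The median percentile of their fold enrichment within a library was 64.2, 71.6 and 48.3 in HA-EZH1, against 96.0, 96.2 and 96.1 in Bio-EZH1 libraries. Over the 50 regions the strongest fold enrichment ran between 1.84 and 6.01 in HA-EZH1 and between 3.56 and 85.9 in Bio-EZH1 libraries. All 3 Bio-EZH1 values were above all 3 HA-EZH1 values in 48 of 50 regions, and the reverse occurred in 0, in values that are not calibrated between libraries. Among the shared promoters, Pax7 had 5.25, 2.70 and 3.15 in HA-EZH1 libraries, against 38.7, 63.0 and 36.8 in Bio-EZH1 libraries. Hoxb13 had 4.43, 4.94 and 5.11, against 19.1, 16.7 and 18.8, and Pax5 had 4.59, 4.30 and 4.91, against 20.1, 22.2 and 17.2. Car11, a carbonic anhydrase-related gene, went the other way, with 9.88, 9.75 and 8.78 in HA-EZH1 and 4.88, 5.26 and 4.18 in Bio-EZH1 libraries. So did Hif1an, with 3.51, 3.44 and 4.53 in HA-EZH1 and 3.15, 2.55 and 3.20 in Bio-EZH1 libraries. Of the 32 shared promoters 29 overlapped a shared region, and in the others the peaks of the 6 libraries did not meet in 1 region. Car11 and Hif1an are among these others, so their values compare peaks of the same promoter window and not of 1 shared region. The number of shared places depended on single choices. Without HA-EZH1 replicate 1 there were 77 shared regions and 49 shared promoters, and with peaks cut to 500 bp at the summit 24 shared regions.

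Summits of the tags were a median of 567 bp apart in shared regions, and within 200 bp in 14 of 50. The 200 bases around the strongest HA-EZH1 summit at Hoxb13, chr11:96194924-96195123 on the plus strand (mm10), are shown for comparison with Phb, with CpG in capitals. They hold 5 CpG and no ACTACA.

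Hoxb13: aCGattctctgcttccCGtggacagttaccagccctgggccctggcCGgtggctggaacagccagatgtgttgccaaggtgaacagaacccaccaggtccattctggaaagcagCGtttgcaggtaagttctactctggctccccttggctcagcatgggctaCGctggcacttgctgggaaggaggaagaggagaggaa

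The relative heights within shared regions were tested with limma on log2 fold enrichment after each library was centred on its median. Centring removed a median difference of -2.10 (log2, HA-EZH1 minus Bio-EZH1), so the changes are relative to it, and without centring HA-EZH1 was lower in 48 regions and higher in 0. After centring 17 regions were lower (34%) and 19 higher (38%) in HA-EZH1 at an adjusted p under 0.05. HA-EZH1 values spanned only 1.84 to 6.01 and Bio-EZH1 values 3.56 to 85.9, so the direction mostly went with the Bio-EZH1 height. Tspear, called higher, had 4.12, 4.46 and 5.09 in HA-EZH1 libraries, and Nkx2-5, called lower, had 5.27, 5.22 and 4.74. A region called higher is thus not one with a tall HA-EZH1 peak. The largest negative difference was at Tchh, a hair follicle gene, with 3.22, 3.13 and 1.84 in HA-EZH1 against 76.3, 85.9 and 73.1 in Bio-EZH1 libraries (log2 difference -2.71, SE 0.18, limma adjusted p = 4.60e-34). Gfi1 (-2.11), Lhx4 (-1.75), Sox14 (-1.71), Prdm12 (-1.60) and the region over Hoxb2 to Hoxb9 (-1.49) followed, all genes of transcription factors. Among regions that overlap a protein-coding promoter window, the largest positive differences were Tspear (1.32), Iyd (1.29), Tbx5 (1.24), Alox15 (0.76), Srms (0.64) and Phyhip (0.55), and every one of these turned negative without centring. The summit of that Tbx5 region was 6420 bp from the TSS. A separate shared region over the Tbx5 TSS had -0.18 (limma adjusted p = 0.38). limma gave all regions a variance from 1 common trend, so the p-values are smaller than 3 libraries against 3 would give alone, and with ranks within libraries in place of fold enrichment 6 regions were lower and 8 higher.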

How the data were processed

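According to the submitters' processing notes and the study's methods, the authors trimmed reads, aligned them with BWA 0.7.17 to mm10 and to the fly genome BDGP6, parted them by genome, removed duplicates with Picard, filtered with SAMtools 1.7 and called peaks per library with MACS2 2.2.4. The deposited narrow peaks have q-values of at most 0.05. The filter applied to the lists afterwards is not given in the sources used here. For each peak the authors' lists hold a fold enrichment (a ratio), a p-value and a q-value as −log10, and a score. From these, peaks on 19 autosomes and X were merged and classed in Python 3.11.15 (numpy 2.4.6, pandas 2.3.3), with TSSs from GENCODE M21 (GRCm38, the assembly of mm10). Sequences came from the RefSeq copy of GRCm38, with letters counted in 300 bp around summits. limma 3.58.1 (R 4.3.3) with an intensity trend and Benjamini-Hochberg adjustment tested shared regions, and exact or stratified permutation tests compared libraries. Scripts were tested on simulated data.

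Members and gene lists (22 lists, 742 genes, 741 matched) were chosen with earlier results of these data known. Named genes were the 10 protein-coding promoters of each class with the highest mean percentile of fold enrichment within libraries (no Gm or Rik symbols, 1 gene per region), up to 6 of the largest limma differences in each direction, all classed members of the clock, PRC2, Hox and myogenic lists and up to 4 of the others; the remaining members named in the text, and the partial peaks, were added after their values were seen. Sequences shown at length are those of the highest ranked promoters of a class whose window overlaps no annotated UTR and is not on chromosome 18; Phb was taken over a higher ranked one because it holds the word 2 times. p-values measure the spread between these libraries only. Alternatives were other q-values, equal numbers of peaks, other windows, TSSs and centring, and leaving out libraries.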

Additional observations from a re-analysis of the deposited data

How the results depend on the processing

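The library measures could not pass a threshold under any alternative, so only their direction and size can be read. With each library cut to 2347 peaks, Bio-only regions numbered 1668 and Bio-only promoters 1739, and the differences between HA-EZH1 and Bio-EZH1 turned to -30.9 percentage points for peaks at promoters, -21.9 for summits within 1 kb of a TSS and -11.4 for median GC, while those in median peak length and CpG ratio kept their sign and grew to -2441 bp and -0.443, against -251.5 bp and -0.0305 over all peaks; the number of peaks is then equal by construction. Shared regions fell to 24 with peaks cut to 500 bp, and shared promoters were 18 with a window of 1 kb, 51 with every transcript and 19 with protein-coding genes alone. Leaving out 1 library gave 50 to 77 shared regions and 32 to 49 shared promoters. In shared regions, no centring gave 0 higher and 48 lower in HA-EZH1, and within-library ranks gave 8 and 6. The causes were not tested. Leaving out replicate 1, 2 or 3 of every group at the other time points, an alternative chosen after seeing the data, kept all 3 directions.

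Same-numbered libraries did not deviate together over the shared regions (r = -0.09, 0.12 and 0.13 across 50 regions), so the numbers were not taken as pairs. A replicate block gave the same 19 and 17 limma calls and, for the number of peaks, a mean difference of -7891 (exact sign-flip p = 0.25, the smallest 3 pairs allow); it changed no direction. Read depth is unknown, so a place without a peak may hold signal under the threshold.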

Other observations

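Transfer RNA genes, which RNA polymerase III transcribes, lay in few regions of any class, most of them HA-only. Of 403 annotated tRNA genes on the chromosomes used, regions overlapping at least 1 numbered 15 among 700 HA-only regions (0.709 Mb in all), 2 among 4409 Bio-only regions (13.5 Mb) and 1 among 50 shared regions (0.766 Mb). Among microRNA genes with an HA-only promoter were the muscle gene Mir133a-2 (5.58, 5.20 and 4.64 in the HA-EZH1 libraries) and Mir21a (4.05, 5.56 and 5.16), named after their values were seen.

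Of the 50 shared regions, 8 were on chromosome 8 (16.0%), beside 5.71% of HA-only and 5.40% of Bio-only regions, and 4 of them lay between 87 and 94 Mb. These counts were noticed in the data and not tested.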
